A study of Mus musculus with 4 samples.

Results

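The comparison described here is that of treated with control livers at day 7, made on 2 of the 4 arrays of the study. The members were chosen by their labels: the array of day 7 delta MET + EGFRi livers and the array of day 7 control livers. All mice were Metff/ff:ERCre+/+, that is, both groups carried floxed Met alleles together with a Cre recombinase inducible by tamoxifen. In the treated group, tamoxifen was injected intraperitoneally on 5 days to delete exon 16 of Met throughout the body, and after 4 days of rest the diet contained canertinib (EGFRi), a kinase inhibitor of EGFR, the receptor of epidermal growth factor, at an intended 80 mg/kg/day. Control littermates received corn oil alone, with neither tamoxifen nor canertinib, so Met deletion, tamoxifen, canertinib and any difference in feeding cannot be told apart. Days are counted from the start of the canertinib diet, and for controls from the end of a rest of the same length. The other 2 arrays held livers of the same groups at day 10. Each array held total RNA pooled from the livers of its group and day; how many animals entered a pool, their sex, their age and the hour at which livers were taken are not given in the labels.

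With 1 array per side, no replicate spread could be measured and no test was possible, so differences are given as sizes on the log2 scale and as folds. The difference between the control arrays of days 10 and 7, which involves no treatment, served as the yardstick for how far 2 pools can lie apart. It shares the day 7 control array with the day 7 comparison, so the day 10 control array is also given for most genes. Some genes are given by their day 7 fold alone. A gene counted as outside both controls lay 2-fold or more from each control array in the same direction. Whether a difference was largest at day 7 was read from the peak and the trough, the distance of the treated day 7 array above the highest or below the lowest of the other 3 arrays.

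MET is the receptor of hepatocyte growth factor, and EGFR binds several growth factors, among them transforming growth factor alpha and amphiregulin. Both are receptor tyrosine kinases of hepatocytes that act through RAS-ERK and PI3K-AKT signalling, and both are best known in the liver for their part in regeneration and in hepatocyte survival. The liver also clears drugs and bile acids, makes most plasma proteins, stores and oxidizes fat, and follows a daily rhythm driven by its own clock, by feeding and by glucocorticoids.

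The arrays had been scaled alike, and their median signals ran from 210.5 to 223.9. Between 24.3% and 25.7% of probe sets lay at or under the floor of 64.8, the 25th percentile of all values, to which lower signals were set. Over probe sets, the log2 signals of any pair of arrays had an r between 0.923 and 0.948, and the 2 control arrays were the most alike. The ratio of the 3' to the 5' probe set of Gapdh, a measure of RNA integrity, was 0.977 on the day 7 control array and 1.22 on the day 7 treated array, with 1.14 and 1.09 on the control and treated arrays of day 10. The part of RNA integrity in the differences was not tested. As markers of the labelled tissue, 16 kept hepatocyte genes were read. Their summed signal was 611576 and 617966 in the controls of days 7 and 10 and 736027 and 621562 in the treated livers. Of these markers, 2 were 2-fold or more higher at day 7 and 0 lower, with a median difference of 0.30. Outside both control arrays by 2-fold or more lay 0 of them. The signals of Cps1, the first enzyme of the urea cycle, were 43537 and 38491 on the control arrays of days 7 and 10, 57685 on the treated array of day 7 and 29543 on that of day 10.

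Of 18193 named genes, 11993 lay above the filter on dim genes. Of these, 1171 (9.76%) were 2-fold or more apart at day 7, 552 of them higher (4.6%) and 619 lower (5.16%) in the treated liver. The yardstick between the 2 control arrays gave 616 genes (5.14%) by the same rule, 246 higher (2.05%) and 370 lower (3.09%) on the day 10 control array. The balance of directions at day 7 moved with scaling: 47.1% of these genes were higher in the treated liver as deposited, against 57.9% (675 higher, 491 lower) with the arrays scaled to equal medians. The median difference of all genes was -0.06 as deposited and 0.03 with equal medians. Differences of 4-fold or more numbered 224 at day 7 and 108 between controls, and those of 8-fold or more 67 and 15. The SD of the log2 difference across genes was 0.70 at day 7 and 0.52 between controls. Outside both control arrays lay 599 genes (4.99%), 271 of them higher (2.26%) and 328 lower (2.73%). The day 7 shares of all kept genes, 4.6% higher and 5.16% lower, are the background for the list counts that follow.

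Brightness separated the day 7 differences from the yardstick. In the dimmest 25% of kept genes 15.4% were 2-fold apart at day 7 and 11.7% between the controls. In the brightest 25% the shares were 9.44% and 2.03%. The day 7 share was thus near the yardstick among dim genes and well above it among abundant ones.

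**Figure D1:**
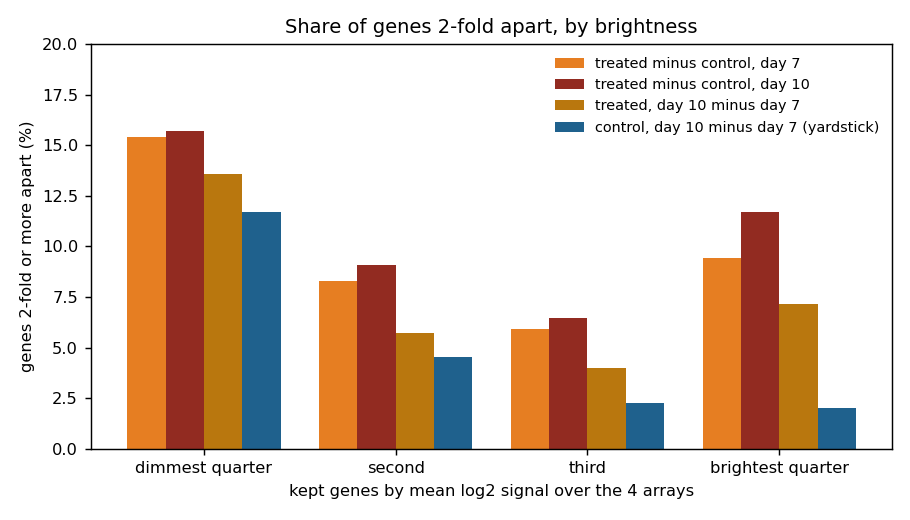
Share of kept genes 2-fold or more apart (vertical axis, percent) in 4 equal groups by mean signal (horizontal axis, dimmest to brightest), for treated minus control at day 7 and at day 10, treated day 10 minus day 7 and control day 10 minus day 7. Day 7 and the controls give 15.4% and 11.7% in the dimmest group and 9.44% and 2.03% in the brightest.

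The targeted receptor gene was not lower on the array. Met read 976 and 1271 on the control arrays of days 7 and 10, 2432 on the treated array of day 7 and 2829 on that of day 10 by its brightest probe set, 2.49-fold higher at day 7, and differed by 0.15 on the log2 scale by another. The deletion removes 1 exon, and the position of these probe sets relative to exon 16 was not examined, so they check nothing about the deletion. Egfr read 5664 and 9707 on the control arrays of days 7 and 10, 6686 on the treated array of day 7 and 7720.1 on that of day 10 by its brightest probe set. Its other probe sets above the filter conflicted in direction, with day 7 differences from -0.48 to 1.22 on the log2 scale. Erbb3, its partner with little kinase activity of its own, read 4181 and 3492 on the control arrays of days 7 and 10, 5104 on the treated array of day 7 and 4475 on that of day 10. Canertinib acts on the protein, so these levels do not measure its effect. Of 16 kept receptor, ligand and regulator genes, 1 was 2-fold higher at day 7, Met itself, and 0 lower. Of 28 genes of ERK feedback and immediate early response, 3 were higher and 1 lower, with a median of -0.02. Junb, a subunit of the transcription factor AP-1, was 3.11-fold higher at day 7, and the 2 control arrays differed by 2.58-fold for it.

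The genes named here for lying farthest outside both control arrays differed at both days. Car3, carbonic anhydrase 3 of hepatocytes, had signals of 54313 and 42838 on the control arrays of days 7 and 10, 191 on the treated array of day 7 and 355 on that of day 10. Hsd3b5, a male-biased steroid dehydrogenase, read 10613 and 7544 in the controls and 64.8, the floor, in both treated livers, which makes it at least 164-fold lower at day 7. Both were thus low on both treated arrays and high on both control arrays. On the other side, Mt1, a metallothionein that binds zinc and copper, read 1058 and 953 on the control arrays of days 7 and 10, 43842 on the treated array of day 7 and 72079 on that of day 10. Lcn2, the iron-scavenging protein lipocalin 2, read 755 and 199 on the control arrays of days 7 and 10, 30636 on the treated array of day 7 and 66002 on that of day 10. At day 7 Mt1 was 41.4-fold and Lcn2 40.6-fold higher, and both were higher still at day 10. The Mt1 fold is that of its brightest probe set. Another Mt1 probe set above the filter read 187 in the control and 656 in the treated livers of day 7, 3.51-fold higher. Mt1 and Mt2 are near-identical, and their probe sets may share signal. Prtn3, the neutrophil protease proteinase 3, lay at the floor in both controls and read 1541 and 4544 in the treated livers, at least 23.8-fold higher at day 7. Acnat2, a peroxisomal acyltransferase, also lay at the floor in both controls, with 1399 and 1346 in the treated livers. Prtn3 and Acnat2 passed the filter only through the treated arrays, so they had to be higher there.

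Other genes were found at one day and not at the other by the 2-fold rule. At day 10, 1289 genes (10.7%) were 2-fold apart, 700 higher (5.84%) and 589 lower (4.91%). Of the 552 genes higher at day 7, 185 were also higher at day 10, which is 33.5% of the day 7 and 26.4% of the day 10 genes. Of the 619 lower genes 137 were lower at both days, 22.1% of the day 7 and 23.3% of the day 10 genes. At day 10, 237 of the higher (42.9%) and 323 of the lower genes (52.2%) were less than 1.5-fold apart either way, and 21 and 36 were 2-fold or more apart in the opposite direction. The 2 comparisons share no array. The control arrays themselves differed by as much in size as the day 7 comparison, in either direction, for 57 of the higher (10.3%) and 37 of the lower genes (5.98%).

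**Figure D2:**
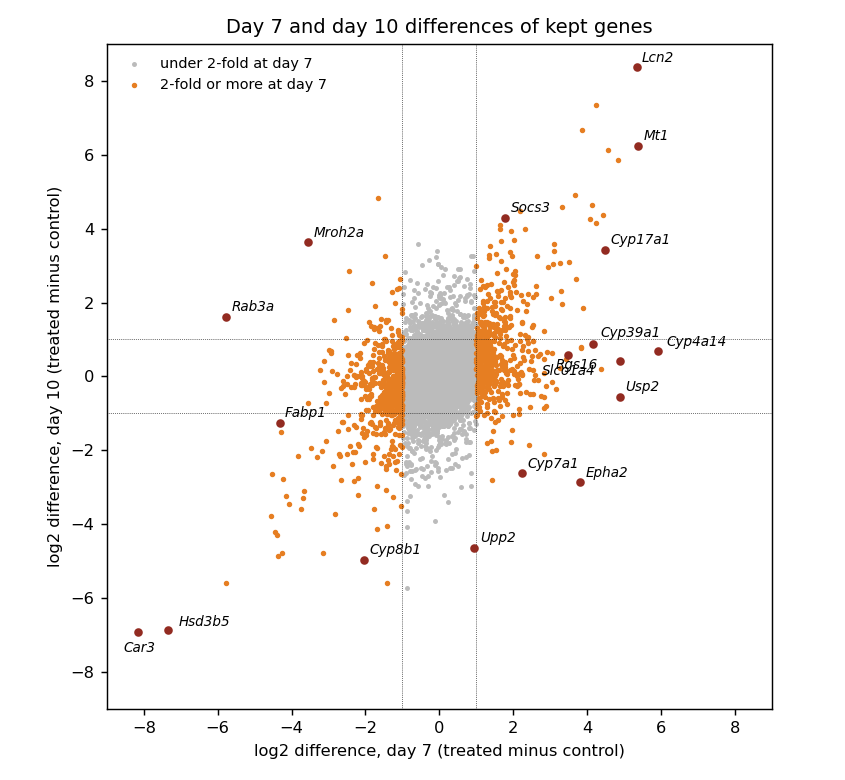
Log2 difference, treated minus control, at day 7 (horizontal axis) and day 10 (vertical axis) for the 11993 kept genes, 1 point per gene. Orange points are the 1171 genes 2-fold or more apart at day 7, dotted lines mark 2-fold, and Car3, Hsd3b5, Mt1 and Lcn2 lie in the corners shared by both days, while Usp2, Rgs16 and Cyp4a14 lie to the right near 0 at day 10.

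A set of 62 genes (0.517%) stood 2-fold or more above the other 3 arrays on the treated day 7 array. The same count was 72 (0.6%) for the treated day 10 array, 33 (0.275%) for the day 7 control array and 20 (0.167%) for the day 10 control array. Among the brightest 25% of genes the counts were 26, 30, 8 and 1 in that order. The peaks of both treated arrays were thus more numerous than those of the controls, and the gap was widest among abundant transcripts.

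The most prominent peak was that of Rgs16, a regulator of G protein signalling that in the liver follows fasting and feeding. Its signals were 64.8 and 116 on the control arrays of days 7 and 10, 1939.8 on the treated array of day 7 and 155 on that of day 10, 12.5-fold above the next array. Its other probe sets were dim. Rgs16 passed the filter only through the treated day 7 array, so it had to be higher there. Fmo2, a flavin-containing monooxygenase, read 2038 and 278 in treated livers of days 7 and 10, against 188 and 202 in the controls, and stood 7.32-fold above the next array. Sema3f, a secreted semaphorin, read 1969 and 252 in treated livers of days 7 and 10, against 279 and 182 in the controls. Each of these genes was low on the other 3 arrays, the treated array of day 10 included.

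Several of the 12 highest peaks belonged to abundant transcripts. Retreg1, a receptor for autophagy of the endoplasmic reticulum, had signals of 2242 and 3138 on the control arrays of days 7 and 10, 14280.5 on the treated array of day 7 and 2948 on that of day 10. Gpcpd1, which splits glycerophosphocholine, read 8028 and 1606 in treated livers of days 7 and 10, against 1690.0 and 1538 in the controls. Fbxo41, an F-box protein, stood 3.41-fold above the next array, with 836 against 229, 245 and 229, but another of its probe sets, under the filter, pointed the other way by -0.22. The remaining peaks, Cyp2c37, Cyp39a1, Usp2, Lpin1, Slco1a4 and Dbp, are described with their pathways. Of these 12 genes, 5 had 1 or more further probe sets above the filter, 6 in all, and all 6 also stood 2-fold or more above the other arrays.

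**Figure D3:**
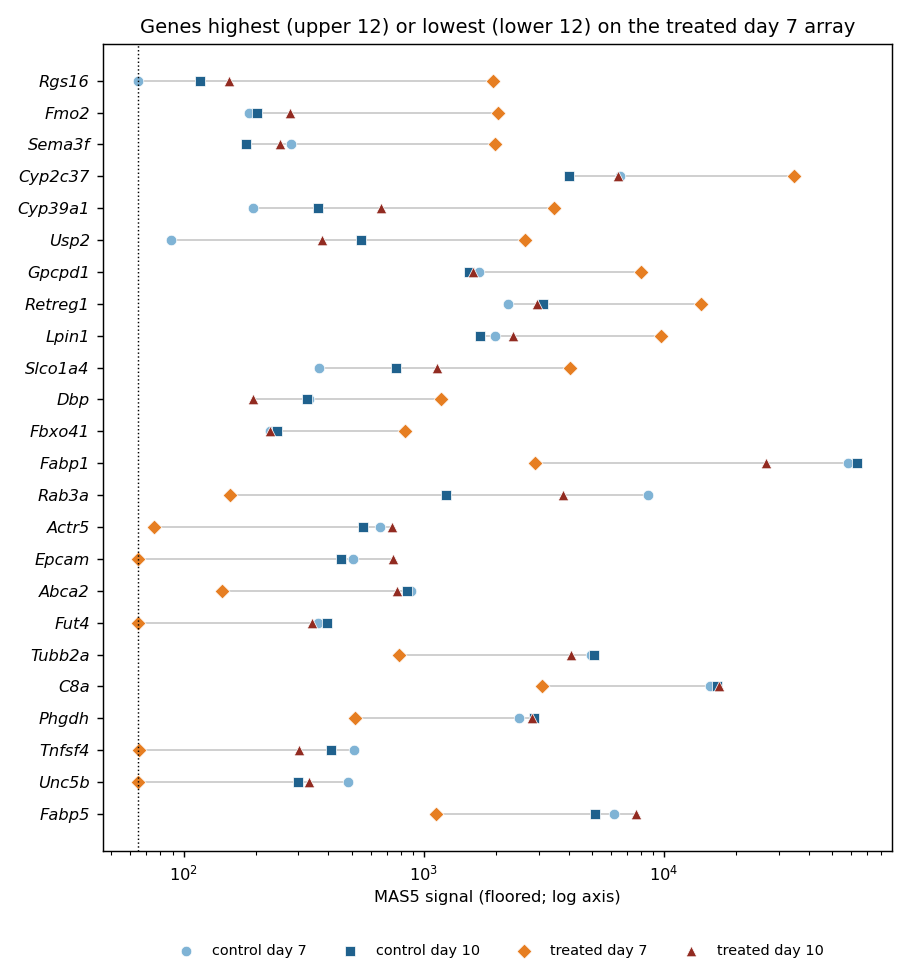
Floored signal (horizontal log axis, dotted line at the floor) of the 12 genes with the largest peak and the 12 with the largest trough on the treated day 7 array, 1 point per array for control and treated livers of days 7 and 10. The treated day 7 point lies above the other 3 in the peak genes and below them in the trough genes, and it is at the floor of 64.8 for 3 trough genes.

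The circadian clock of the liver is a feedback loop in which CLOCK and BMAL1 (encoded by Arntl) bind E-box sequences and switch on the Per and Cry genes, whose products inhibit them. The same pair drives Dbp, Tef and Hlf, transcription factors that bind D-box sequences of output genes. Of 18 kept clock genes, 8 were 2-fold or more higher at day 7 and 0 lower, with a median difference of 0.94, against -0.06 over all kept genes. At day 10 the median was -0.06, and between the controls 0.25. Against the day 10 control array the day 7 median was 0.59, and 7 of the 8 higher genes lay outside both controls. Between the 2 control arrays 4 of the 18 were 2-fold apart, against 5.14% of all kept genes. The treated day 7 array was the highest of the 4 for 10 of the 18, against 22.2% of all kept genes.

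Among the clock outputs, Dbp read 332 and 325 on the control arrays of days 7 and 10, 1172 on the treated array of day 7 and 194 on that of day 10. Tef read 5900.4 and 1776 in treated livers of days 7 and 10, against 1664 and 2418 in the controls. The treated livers of day 7 thus held the highest signal of both, and those of day 10 lay near the controls or, for Dbp, under them. Usp2, a ubiquitin protease with a strong daily rhythm, had signals of 88.2 and 547 on the control arrays of days 7 and 10, 2630.0 on the treated array of day 7 and 375 on that of day 10. The 2 control arrays differed by 6.2-fold for Usp2, but the treated day 7 signal stood 4.81-fold above the higher of them. Lpin1, which makes diacylglycerol for triglycerides and also acts as a coactivator of fat oxidation, read 9687 and 2339 in treated livers of days 7 and 10, against 1971 and 1719 in the controls.

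Of the loop's own genes, Per1 read 90.6 and 519 on the control arrays of days 7 and 10, 1283 on the treated array of day 7 and 888 on that of day 10. Its fold of 14.2 at day 7 rests on the low day 7 control array; against the day 10 control array it was 2.47-fold. Cry2, the partner of the PER proteins, read 296 and 72.9 in the controls, 676 in the treated livers of day 7 and 186 in those of day 10. Cry2 passed the filter only through the treated day 7 array, so it had to be higher there. Arntl, on the activating arm, lay on the other side, with 508 in the treated livers of day 7, 1488 in those of day 10 and 904 and 1167 in the controls. Nfil3, which represses D-box genes, read 612 and 882 on the control arrays of days 7 and 10, 551 on the treated array of day 7 and 2014 on that of day 10. Nr1d1, which encodes the repressor REV-ERB alpha, was nearly level, with 1134, 1103, 997 and 1245 in the same order of arrays.

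Bhlhe40, another repressor of E-box genes, was higher at both days, with 2123 and 2288 in the treated livers of days 7 and 10 and 916 and 673 in the controls. Hlf read 1686 and 780.3 in treated livers of days 7 and 10, against 880.5 and 1189 in the controls. Upp2, a uridine phosphorylase under clock control, read 7811 and 187 in treated livers of days 7 and 10, against 4048 and 4664 in the controls, so that the 2 treated arrays lay on opposite sides of the controls. Cry2, Arntl, Nfil3, Nr1d1, Bhlhe40, Hlf and Upp2 lay outside the naming rule and were named after their values were seen.

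**Figure D4:**
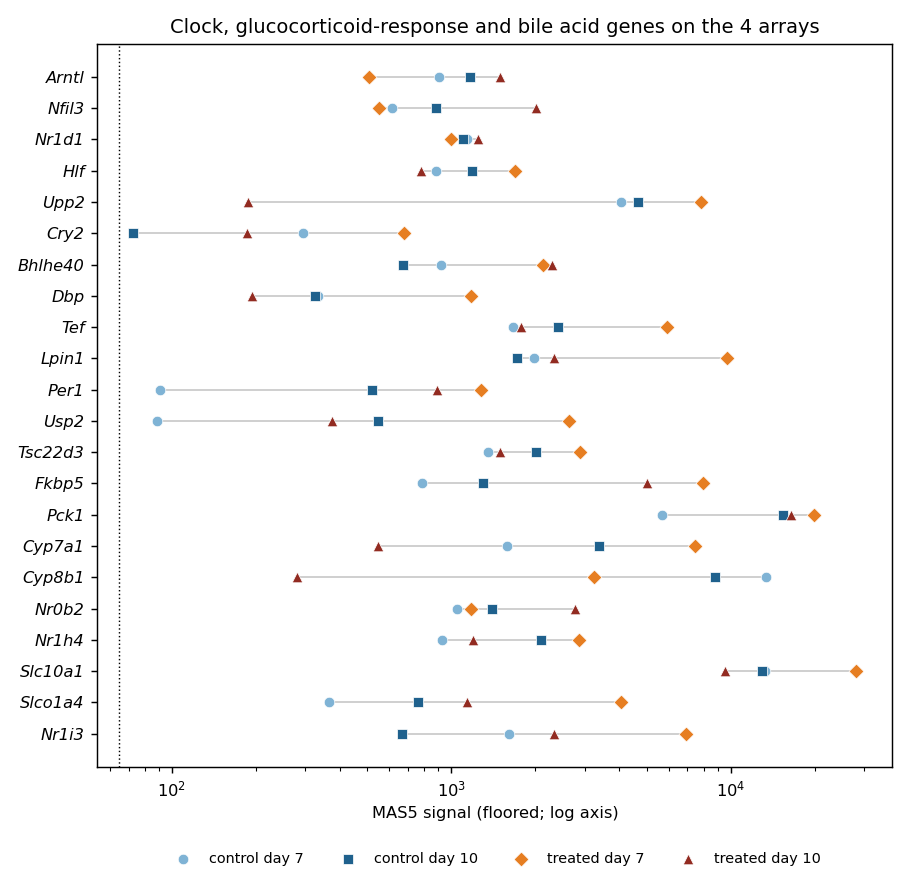
Floored signal (horizontal log axis) of genes of the clock, the glucocorticoid response and bile acid handling, and of Nr1i3, 1 point per array; the dotted line is the floor. Dbp, Tef, Usp2 and Lpin1 are highest on the treated day 7 array, as are Slco1a4 and Nr1h4, and Cyp7a1 lies above the controls at day 7 and below them at day 10.

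The E-box CACGTG was searched in the 250 bases before the start of each gene, on both strands, because it is the element through which CLOCK and BMAL1 act. It reads the same on both strands. Of the 62 peak genes 41 had a promoter in the RefSeq table, and 7 of them held the E-box in at least 1 promoter (17.1%), against 937 of 9690 kept genes (9.67%) and 6.02% of the 32851 promoters of the table. These 7 were Bnip3, Cpsf4l, Nr1i3, Retreg1, Tef, Tspan4 and Vps26a. Of the 7 clock genes that were 2-fold higher and had a promoter in the table, 2 held it, Per1 and Tef. The D-box TTATGTAA was held by 0 of the 41 peak genes and by 0.819% of all promoters, and among the clock genes by Per3 alone. The E-box does not overlap the D-box. The promoters of Tef and Per1 are shown as those of the 2 higher clock genes that hold the E-box, whose letters are in capitals, and that of Nr1i3 because the gene encodes CAR, a receptor that switches on drug-clearing genes. Nr1i3 was picked after its values were seen, and the promoters of the other 5 peak genes with the E-box are not shown. The sequences are those of RefSeq on GRCm38.p6, all on the plus strand, and end at the base before the start. They span chr15:81802423-81802672 and chr15:81811164-81811413 for the 2 starts of Tef, chr11:69098699-69098948 for Per1 and chr1:171213720-171213969 for Nr1i3.
Tef, upstream start: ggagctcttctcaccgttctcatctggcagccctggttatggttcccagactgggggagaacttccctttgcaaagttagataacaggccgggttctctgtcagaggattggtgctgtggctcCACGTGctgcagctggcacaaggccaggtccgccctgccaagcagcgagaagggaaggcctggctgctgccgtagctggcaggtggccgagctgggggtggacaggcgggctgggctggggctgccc
Tef, downstream start: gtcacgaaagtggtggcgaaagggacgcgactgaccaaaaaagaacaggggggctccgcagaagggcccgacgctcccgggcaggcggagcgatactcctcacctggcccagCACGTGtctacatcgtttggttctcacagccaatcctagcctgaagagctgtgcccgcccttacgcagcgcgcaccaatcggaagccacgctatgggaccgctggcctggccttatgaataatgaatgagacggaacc
Per1: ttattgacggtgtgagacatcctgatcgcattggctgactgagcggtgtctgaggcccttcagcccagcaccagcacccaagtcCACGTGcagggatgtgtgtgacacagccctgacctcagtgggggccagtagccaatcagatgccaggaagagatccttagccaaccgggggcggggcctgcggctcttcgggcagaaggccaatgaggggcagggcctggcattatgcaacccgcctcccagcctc
Nr1i3: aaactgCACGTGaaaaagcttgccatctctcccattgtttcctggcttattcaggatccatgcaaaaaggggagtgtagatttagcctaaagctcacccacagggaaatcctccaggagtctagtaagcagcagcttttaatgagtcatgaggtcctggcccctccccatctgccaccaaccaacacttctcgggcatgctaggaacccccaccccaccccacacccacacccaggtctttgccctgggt
The first base of the E-box lay 127 and 138 bases before the 2 Tef starts, 166 bases before the Per1 start shown and 244 bases before that of Nr1i3. Another Per1 promoter in the RefSeq table lacked the E-box and is not shown. A match is a description of the letters, and binding was not measured.

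Glucocorticoids, the adrenal steroids that follow stress, fasting and the time of day, switch on a known set of liver genes. Of 19 kept genes of that list, 10 were 2-fold or more higher at day 7 and 1 lower. The median difference was 1.09 at day 7, 0.22 at day 10 and 0.18 between the controls. Against the day 10 control array the day 7 median was 0.52, and 7 of the 10 higher genes lay outside both controls. The list shares Lcn2, Mt1 and Mt2 with the acute phase and metal lists, and Per1 with the clock list. Fkbp5, a chaperone that restrains the glucocorticoid receptor, read 788 and 1301 on the control arrays of days 7 and 10, 7943 on the treated array of day 7 and 5025 on that of day 10, 10.1-fold higher at day 7. Both treated arrays lay above both control arrays for Fkbp5, with the higher signal at day 7.

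Tsc22d3, which encodes the glucocorticoid-induced leucine zipper, read 2884 and 1495 in treated livers of days 7 and 10, against 1358 and 2007 in the controls by its brightest probe set. Its 3 other probe sets above the filter differed by 0.46, 0.09 and -0.33 on the log2 scale at day 7. Tat, the tyrosine aminotransferase, read 44276 and 33318 in treated livers of days 7 and 10, against 22298 and 28598 in the controls. Pck1, the enzyme that opens glucose synthesis, read 5691 and 15363 on the control arrays of days 7 and 10, 19866 on the treated array of day 7 and 16376 on that of day 10, so that its 3.49-fold difference at day 7 came mostly from a low day 7 control array. Serpina6, the plasma carrier of corticosteroids, lay on the other side, with 3901 and 4411 on the control arrays of days 7 and 10, 1012 on the treated array of day 7 and 1589 on that of day 10. Tsc22d3 and Pck1 were named after their values were seen. Igfbp1, the insulin-repressed binding protein of insulin-like growth factors, read 26098 and 24283 in treated livers of days 7 and 10, against 2706 and 2906 in the controls, a 9.65-fold difference at day 7. Ddit4, a stress-induced inhibitor of mTOR that glucocorticoids also raise, had its highest signal at day 7, with 221 and 291 on the control arrays of days 7 and 10, 1564 on the treated array of day 7 and 675 on that of day 10. Irs2, an insulin receptor substrate, read 1094 and 944 in treated livers of days 7 and 10, against 291 and 91.4 in the controls.

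Bile acids are made from cholesterol by a chain of cytochrome P450 enzymes, of which Cyp7a1 sets the rate and Cyp8b1 directs the product towards cholic acid. FXR, encoded by Nr1h4, senses bile acids and lowers Cyp7a1 through Nr0b2 (SHP). Of 21 kept genes of this list, 5 were 2-fold or more higher at day 7 and 2 lower (33.3%, against 9.76% of all kept genes). The list median came to 0.48 at day 7 and to -0.47 at day 10. Of the 21 genes, 13 (61.9%) were highest on the treated day 7 array, against 22.2% of all kept genes. The difference between the days was not tested.

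Cyp7a1 read 1587 and 3373 on the control arrays of days 7 and 10, 7478 on the treated array of day 7 and 546 on that of day 10. It was 4.71-fold higher in treated livers at day 7 and 6.18-fold lower at day 10, and a second probe set above the filter was higher by 1.75 on the log2 scale at day 7. Cyp8b1 went the same way at both days, with 13336 and 8760.0 on the control arrays of days 7 and 10, 3245 on the treated array of day 7 and 280.2 on that of day 10, lower by 4.11-fold at day 7. At day 7, therefore, the treated livers held more Cyp7a1 and less Cyp8b1 signal than either control. Cyp39a1, which acts on 24-hydroxycholesterol in bile acid synthesis, was not in the list and read 194 and 361 on the control arrays of days 7 and 10, 3474 on the treated array of day 7 and 660.1 on that of day 10, 17.9-fold higher at day 7.

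Nr1h4 read 2874 and 1199 in treated livers of days 7 and 10, against 929 and 2094 in the controls. Nr0b2 read 1180.1 and 2766 in treated livers of days 7 and 10, against 1049 and 1402 in the controls. The FXR gene was thus highest on the treated array of day 7 and its target Nr0b2 on that of day 10. Slco1a4, a sinusoidal uptake carrier of bile acids and other organic anions, stood 3.56-fold above the next array, with 365 and 763 on the control arrays of days 7 and 10, 4050.2 on the treated array of day 7 and 1137 on that of day 10. Slco1a1, a related and male-biased carrier, was 12.9-fold lower, with 6237 and 6148 on the control arrays of days 7 and 10, 484 on the treated array of day 7 and 624 on that of day 10. Slc10a1, the sodium-dependent bile acid carrier NTCP, read 28154 and 9549.5 in treated livers of days 7 and 10, against 13257 and 12912 in the controls. Abcc3, an export pump of the sinusoidal membrane, read 5873 and 2562 in treated livers of days 7 and 10, against 2695 and 2489 in the controls. Nr0b2, Slc10a1 and Abcc3 were named after their values were seen. The uptake carriers thus differed in direction from each other at day 7, Slco1a4 and Slc10a1 being higher and Slco1a1 lower.

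Several drug-clearing genes had their highest signal on the treated array of day 7. CAR, encoded by Nr1i3, is a nuclear receptor that switches on P450, sulfotransferase and transporter genes. Nr1i3 read 1615 and 666 on the control arrays of days 7 and 10, 6930.3 on the treated array of day 7 and 2328 on that of day 10, 4.29-fold higher at day 7. Cyp2c37, a P450 that acts on arachidonic acid, read 34681 and 6454 in treated livers of days 7 and 10, against 6531 and 4004 in the controls, and stood 5.31-fold above the next array. Cyp3a13 read 13831 and 8774 in treated livers of days 7 and 10, against 4994 and 5951 in the controls. Of 31 kept P450 genes and their regulators, 6 were 2-fold higher and 4 lower (32.3%, against 9.76% of all kept genes), with a median of 0.11. On the treated day 7 array 17 of them were highest (54.8%, against 22.2% of all kept genes). Cyp2u1, a fatty acid hydroxylase, was 8.44-fold lower by its brightest probe set, with 1181 and 960.2 on the control arrays of days 7 and 10, 140.0 on the treated array of day 7 and 284 on that of day 10. Another Cyp2u1 probe set above the filter was 1.38-fold lower at day 7. Members of the Cyp2c family are near-identical, so their probe sets may share signal.

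Of 29 kept conjugating enzymes, 3 were 2-fold higher and 7 lower at day 7 (34.5%, against 9.76% of all kept genes). The list median came to -0.32 at day 7 and to -1.17 at day 10. The 3 higher genes each peaked at day 7. Sult1a1, a phenol sulfotransferase, read 4460.5 and 6256 on the control arrays of days 7 and 10, 25384 on the treated array of day 7 and 9158 on that of day 10. Sult1d1, which sulfates catecholamines, read 9956 and 2952 in treated livers of days 7 and 10, against 2556 and 2557 in the controls. The glutathione transferase Gstt3 read 3518 and 852 in treated livers of days 7 and 10, against 1260.4 and 981 in the controls. The lower members included Sult2a8, a male-biased sulfotransferase of bile acids, at 22863 and 17099 in controls and 1086 and 864 in treated livers of days 7 and 10. Ugt2b38, a glucuronosyltransferase, was 12.7-fold lower at day 7.

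Many P450, sulfotransferase and urinary protein genes of the mouse liver differ between the sexes, a pattern set by growth hormone pulses through STAT5b and BCL6. Of 18 kept male-biased genes, 0 were 2-fold higher and 14 lower at day 7, with a median of -2.96 at day 7 and -2.52 at day 10. Cyp4a12a, an arachidonic acid hydroxylase, was 21.9-fold lower, with 16313 and 17874 on the control arrays of days 7 and 10, 744 on the treated array of day 7 and 964 on that of day 10. Mup10, a major urinary protein from a near-identical family, was 23.7-fold lower, and 11.4-fold lower against the day 10 control array. Nudt7, a peroxisomal enzyme that splits coenzyme A, was lowest on the treated day 7 array, with 19938 and 20756 on the control arrays of days 7 and 10, 1804 on the treated array of day 7 and 5429 on that of day 10. The male-biased genes were thus low at both days, and between the 2 control arrays the list median was -0.16.

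The female-biased genes showed their largest differences at day 7. Of 11 kept, 7 were 2-fold higher and 0 lower, 6 stood 2-fold above all other arrays, with a list median of 1.23 at day 7 against 0.47 at day 10. Of the 24 genes listed, 7 were filtered out as dim and 6 had no name here, and members that pass only through the treated arrays had to differ. Cyp17a1, a steroid hydroxylase, read 523 and 519 on the control arrays of days 7 and 10, 11644 on the treated array of day 7 and 5615 on that of day 10, 22.3-fold higher at day 7. Acot3, a peroxisomal acyl-CoA thioesterase, read 1123 and 382 in treated livers of days 7 and 10, against 117 and 325 in the controls. Cyp4a14, a fatty acid hydroxylase that PPARA induces, had the largest fold of the list, 60.3-fold, with 179.7 and 2280.4 on the control arrays of days 7 and 10, 10842 on the treated array of day 7 and 3665 on that of day 10. Against the day 10 control array it was 4.75-fold, because the 2 control arrays themselves differed by 12.7-fold. Socs2, a growth hormone-induced brake on STAT5, read 3352 and 2127 in treated livers of days 7 and 10, against 737 and 1648 in the controls.

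Most genes of amino acid breakdown and the urea cycle had their highest signal on the treated day 7 array, few of them by 2-fold. Of 34 kept genes, 4 were 2-fold higher and 0 lower (11.8%, against 9.76% of all kept genes), and 22 were highest on the treated day 7 array (64.7%, against 22.2% of all kept genes). The list median stood at 0.31 at day 7, -0.34 at day 10 and 0.06 between the controls. Mat1a, which makes S-adenosylmethionine, read 18545 and 21632 on the control arrays of days 7 and 10, 62079.8 on the treated array of day 7 and 39772 on that of day 10. Asl, the urea cycle enzyme argininosuccinate lyase, read 23906 and 5068 in treated livers of days 7 and 10, against 9062 and 10989 in the controls. The aspartate aminotransferase Got1 was 2.63-fold higher, with 16572 against 6304 at day 7. Glul, the glutamine synthetase of pericentral hepatocytes, was 2.21-fold higher by its brightest probe set and by 0.45 on the log2 scale in another. Prodh, which opens proline breakdown, read 11514 and 2889.5 in treated livers of days 7 and 10, against 5848 and 2835 in the controls.

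Genes of fat synthesis and storage were mostly lower at day 7, and the deepest of the 12 troughs, that of Fabp1, is described with them. Fabp1, the main fatty acid binding protein of hepatocytes, read 58376 and 63240.0 on the control arrays of days 7 and 10, 2909 on the treated array of day 7 and 26549 on that of day 10. The treated day 7 signal was 20.1-fold under its control and 9.13-fold under the next array, and a second probe set differed by -4.44 on the log2 scale. Fabp5, a related binding protein, read 1120.0 and 7651 in treated livers of days 7 and 10, against 6174 and 5156 in the controls. Of 24 kept genes of fatty acid and triglyceride synthesis, 1 was 2-fold higher, Lpin1, and 11 were lower, with a median of -0.69 at day 7 and -0.32 at day 10.

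Scd1, the stearoyl-CoA desaturase, read 62724 and 67629.6 on the control arrays of days 7 and 10, 3761 on the treated array of day 7 and 6188 on that of day 10, 16.7-fold lower at day 7. Elovl3, a male-biased elongase, was 54.5-fold lower. Fads2, the desaturase of polyunsaturated fatty acids, read 1160.5 and 2060.5 in treated livers of days 7 and 10, against 4363 and 2632 in the controls. Acly, which supplies acetyl-CoA for fat synthesis, and Srebf1, the transcription factor of the pathway, were 3.09-fold and 2.52-fold lower at day 7. Against the day 10 control array they were 2.09-fold and 1.57-fold lower. Both were named after their values were seen. For Acly the other probe sets above the filter differed by -1.02 and -1.34 on the log2 scale at day 7, and a dim one under the filter by 0.21.

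Of 13 kept lipid droplet genes, 1 was 2-fold higher and 4 were lower. Plin2, the coat protein of lipid droplets, was low at day 7 alone, with 16650.1 and 18752 on the control arrays of days 7 and 10, 4987 on the treated array of day 7 and 18411 on that of day 10. G0s2, an inhibitor of the triglyceride lipase ATGL, read 289.8 and 504 in treated livers of days 7 and 10, against 1462 and 2095 in the controls. Pnpla2, which encodes ATGL, read 4299 and 2171 in treated livers of days 7 and 10, against 1798 and 2187 in the controls. The lipase was thus higher and its inhibitor lower at day 7. Of 23 kept genes of fat oxidation, 2 were higher and 4 lower, with a median of -0.03. Pdk4, which turns off pyruvate oxidation, read 352 and 356 on the control arrays of days 7 and 10, 89.5 on the treated array of day 7 and 394 on that of day 10. Bdh1, an enzyme of ketone bodies, read 1285 and 3819.9 in treated livers of days 7 and 10, against 3958 and 3223 in the controls. Acaa1b, a peroxisomal thiolase, read 3181 and 1443 in treated livers of days 7 and 10, against 28337 and 39676 in the controls. Pdk4 and Bdh1 were low on the treated day 7 array alone, and Acaa1b on both treated arrays.

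A set of 140 genes (1.17%) lay 2-fold or more under the other 3 arrays on the treated day 7 array. The counts for the other arrays were 189 (1.58%) for treated day 10, 115 (0.959%) for control day 7 and 148 (1.23%) for control day 10, so the day 7 treated array did not have the most. Of the 140, 86 were in the dimmest 25% of genes and 15 lay at the floor. Among the brightest 25% the day 7 treated array had 23 troughs, against 12 and 14 on the controls of days 7 and 10 and 54 on the treated array of day 10. Of the 12 deepest troughs 4 had further probe sets above the filter, 5 in all, of which 2 were also 2-fold under the other arrays, those of Fabp1 and Fabp5.

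C8a, a subunit of the complement attack complex made by hepatocytes, read 15539 and 16569 on the control arrays of days 7 and 10, 3116 on the treated array of day 7 and 16993 on that of day 10, 4.99-fold under the next array. Tubb2a, a beta tubulin, read 790.5 and 4092 in treated livers of days 7 and 10, against 4967 and 5117 in the controls. Phgdh, the entry enzyme of serine synthesis, read 517 and 2831 in treated livers of days 7 and 10, against 2478 and 2867 in the controls. Its other probe sets above the filter differed by -1.20 and -0.37 on the log2 scale at day 7. The former also differed by -1.02 at day 10. A dim probe set, under the filter, read 0.75 at day 7. By the brightest probe sets of these 3 genes the treated livers of day 10 lay at or near the controls. Rab3a, a small GTPase of vesicle release, read 156 and 3796 in treated livers of days 7 and 10, against 8541 and 1239.8 in the controls, so its 2 controls differed by 6.89-fold. Epcam, a surface protein of bile duct and progenitor cells, was at the floor on the treated day 7 array and read 509, 452 and 746 on the controls of days 7 and 10 and the treated array of day 10. Another Epcam probe set lay at the floor on every array. The remaining deep troughs were dim genes: Abca2 and Tnfsf4 had 144 and 65.0 on the treated day 7 array, and Fut4 and Unc5b lay at the floor. Another probe set pointed the other way for Actr5 (0.20) and Unc5b (1.31), in log2 units.

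Most stress genes of the cytosol and of the endoplasmic reticulum were near or under their controls at day 7. Of 19 kept heat shock genes, 0 were 2-fold higher at day 7 and 4 lower, with a median of -0.24. Hspa1b, the inducible HSP70, read 1913 and 2351 on the control arrays of days 7 and 10, 355 on the treated array of day 7 and 642 on that of day 10. Hsp90aa1, the inducible HSP90, read 2130.5 and 4036 in treated livers of days 7 and 10, against 5813 and 5959.6 in the controls. Hsph1, a co-chaperone of HSP70, read 494 and 1002 in treated livers of days 7 and 10, against 1215 and 1379.8 in the controls. Both were lowest on the treated day 7 array. Of 31 kept genes of the unfolded protein response, 2 were 2-fold higher and 1 lower at day 7, with medians of -0.12 at day 7 and 0.66 at day 10. Herpud1, which takes part in the degradation of misfolded proteins, read 9209 and 4323 in treated livers of days 7 and 10, against 3392 and 6442 in the controls. Pdia6, a disulfide isomerase, read 3160.5 and 12175 in treated livers of days 7 and 10, against 4995 and 4092 in the controls. Both were named after their values were seen. The derlin gene Derl3 read 927 and 182 on the control arrays of days 7 and 10, 172 on the treated array of day 7 and 1311 on that of day 10.

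The share of cytoskeleton genes 2-fold apart at day 7 was near that of all kept genes. Of 22 kept, 1 was higher and 2 were lower, 13.6% against 9.76% of all kept genes. The list median was -0.34 against the day 7 control array and -0.18 against that of day 10. Actb, beta actin, named after its values were seen, read 34642 and 16686 on the control arrays of days 7 and 10, 11241 on the treated array of day 7 and 23369 on that of day 10 by its brightest probe set. The highest signal of that probe set was thus on the day 7 control array and the lowest on the day 7 treated array, and the control arrays differed by 2.08-fold. Another Actb probe set differed by -0.46 on the log2 scale at day 7, with its highest signal, 6126, on the day 10 control array and 5920 on that of day 7.

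Most acute phase genes were higher at both days. Of 25 kept acute phase genes, 15 were 2-fold higher and 1 lower at day 7, with a median of 1.38 at day 7 and 1.67 at day 10. Orm2, an orosomucoid, read 649.5 and 171 on the control arrays of days 7 and 10, 12193 on the treated array of day 7 and 28119.7 on that of day 10, and the probe sets of its family may share signal. Cebpd, a transcription factor of the acute phase, read 1692 and 1430.5 in treated livers of days 7 and 10, against 333 and 417 in the controls. Of 14 kept genes of interleukin-6 signalling, 6 were 2-fold higher and 0 lower, with medians of 0.48 and 1.20 at days 7 and 10. Socs3, the feedback inhibitor of that pathway, read 1225 and 6167 in treated livers of days 7 and 10, against 354 and 313 in the controls, so its day 7 signal lay between the controls and day 10. Pim1, a kinase that STAT3 induces, was 4.2-fold higher at day 7. Cxcl1, a neutrophil chemokine, read 6585 and 14289 in treated livers of days 7 and 10, against 2057 and 1639 in the controls.

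Interferon genes did not share that direction. Of 18 kept, 0 were 2-fold higher at day 7 and 5 lower, with a median of -0.41 at day 7, 0.16 at day 10 and -0.35 between the controls. Bst2, the viral tether tetherin, read 712 and 1317 in treated livers of days 7 and 10, against 2023 and 2117 in the controls. Rsad2, the antiviral enzyme viperin, read 365 and 642 in treated livers of days 7 and 10, against 1043 and 707 in the controls by its brightest probe set. Its other probe sets above the filter differed by -0.26 and -0.46 on the log2 scale at day 7. Ifit3, an interferon-induced antiviral protein, read 137 and 126 in treated livers of days 7 and 10, against 471 and 367 in the controls. The control arrays differed in the list median by nearly as much as the day 7 comparison.

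Markers of macrophages were among the higher genes. Of 21 kept macrophage markers, 7 were 2-fold higher at day 7 and 1 lower, and their summed signal was 32067 and 19416 in the controls of days 7 and 10 and 63771 and 61895 in the treated livers. Itgam was filtered out as dim. The list median was 0.85 at day 7 and -0.61 between the controls, the day 10 control being the lowest. Cd163, the scavenger receptor of hemoglobin, read 2973 and 1972 in treated livers of days 7 and 10, against 387 and 254 in the controls. C1qc, a chain of complement C1q, read 5909 and 5228 in treated livers of days 7 and 10, against 1479 and 894 in the controls. Vsig4, a complement receptor of Kupffer cells, read 5162 and 4652 in treated livers of days 7 and 10, against 1333 and 1050.2 in the controls. Marco, a scavenger receptor, and the chemokine Ccl6 were 3.38-fold and 6.13-fold higher at day 7. The 2 control arrays differed by 3.01-fold for Marco and 1.25-fold for Ccl6.

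Of 11 kept neutrophil markers, 5 were 2-fold higher and 0 lower at day 7. Members that passed the filter only through the treated arrays, Prtn3 and S100a9 among them, had to differ. Their summed signal, Lcn2 included, was 5149 and 4479 in the controls of days 7 and 10 and 42462 and 81108 in the treated livers. Most of the treated sums was Lcn2, which also stands in the acute phase list; without it, an alternative chosen after the values were seen, the sums were 4394 and 4280.2 in the controls and 11826 and 15106 in the treated livers. S100a8, a subunit of calprotectin, read 3352 and 3656 in treated livers of days 7 and 10, against 388 and 305 in the controls. Its partner S100a9 read 1555 and 1702 in treated livers of days 7 and 10, against 119.6 and 275 in the controls. Of the 15 neutrophil markers named on the array 4 were filtered out as dim, and Camp, a granule peptide, lay at the floor on all 4 arrays. In a bulk liver, more cells of a type and more RNA per cell cannot be told apart. The part of these cells in the acute phase and chemokine values was not tested. Over all kept genes, 4.6% were 2-fold higher and 5.16% lower at day 7. Of 9 kept markers of T and NK cells, 0 were 2-fold higher and 0 lower, and the same was true of 20 markers of sinusoidal endothelium. Of 10 markers of B and plasma cells 2 were higher and 0 lower, and of 15 stellate cell markers 2 and 0. Of 6 bile duct markers 1 was higher and 2 were lower, of 11 dendritic cell markers 0 and 2, and of 7 pancreatic markers 0 and 1. The erythroid list had 1 higher and 1 lower of 4, the fetal liver list 2 and 0 of 9, and the adipocyte list 0 and 0 of 3.

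Cholesterol synthesis was higher at both days. The treated day 7 array was the highest of the 4 for 16 of 20 kept genes (80%, against 22.2% of all kept genes). Of these 20 genes 9 were 2-fold higher and 0 lower at day 7, with medians of 0.91 at day 7, 1.27 at day 10 and -0.59 between the controls. Cyp51, the lanosterol demethylase, read 1822 and 1509 on the control arrays of days 7 and 10, 8365 on the treated array of day 7 and 6981 on that of day 10. Sqle, the squalene epoxidase, read 12489 and 10676 in treated livers of days 7 and 10, against 3939.9 and 2097 in the controls. Idi1, an isomerase of isoprenoid precursors, read 23865 and 15567 in treated livers of days 7 and 10, against 8290.5 and 4749 in the controls. Mevalonate kinase, Mvk, read 2168 and 1902 in treated livers of days 7 and 10, against 568 and 124 in the controls. For these 4 genes each treated array lay above both controls, and the day 10 control array was the lowest.

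Hamp, which encodes the iron hormone hepcidin, read 50159 and 55852 on the control arrays of days 7 and 10, 2439 on the treated array of day 7 and 1916 on that of day 10, 20.6-fold lower at day 7, and its near-identical copy Hamp2 may share its signal. Id3 and Smad7, targets of bone morphogenetic protein signalling, were 5.64-fold and 3.92-fold lower at day 7, and Bmp6, a ligand of that pathway, 4.18-fold lower. Smad7 was lowest on the treated day 7 array, with 733 and 809 on the control arrays of days 7 and 10, 187 on the treated array of day 7 and 529.9 on that of day 10. Of 26 kept genes of this list 3 were 2-fold higher and 6 lower. Of 11 metal genes 4 were higher and 0 lower, among them Slc39a14, a zinc importer, at 3.98-fold by its brightest probe set. Its other probe sets above the filter were 1.27-fold, 1.40-fold and 7.37-fold higher at day 7.

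The remaining lists are given by their counts and medians, against -0.06 for all kept genes. Of 49 kept genes of oxidative phosphorylation 0 were 2-fold higher and 0 lower, with a median of -0.19. Of 33 ribosomal protein genes 2 were higher and 0 lower, with a median of 0.47. Of 25 cell cycle genes 0 were higher and 1 lower. Of 30 proteasome genes 1 was higher and 0 lower. Of 25 lysosomal genes 4 were higher and 1 lower, with a median of 0.47. Of 35 genes of plasma proteins and coagulation 3 were higher and 5 lower, and of 21 apolipoprotein and lipoprotein genes 3 and 0.

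**Figure D5:**
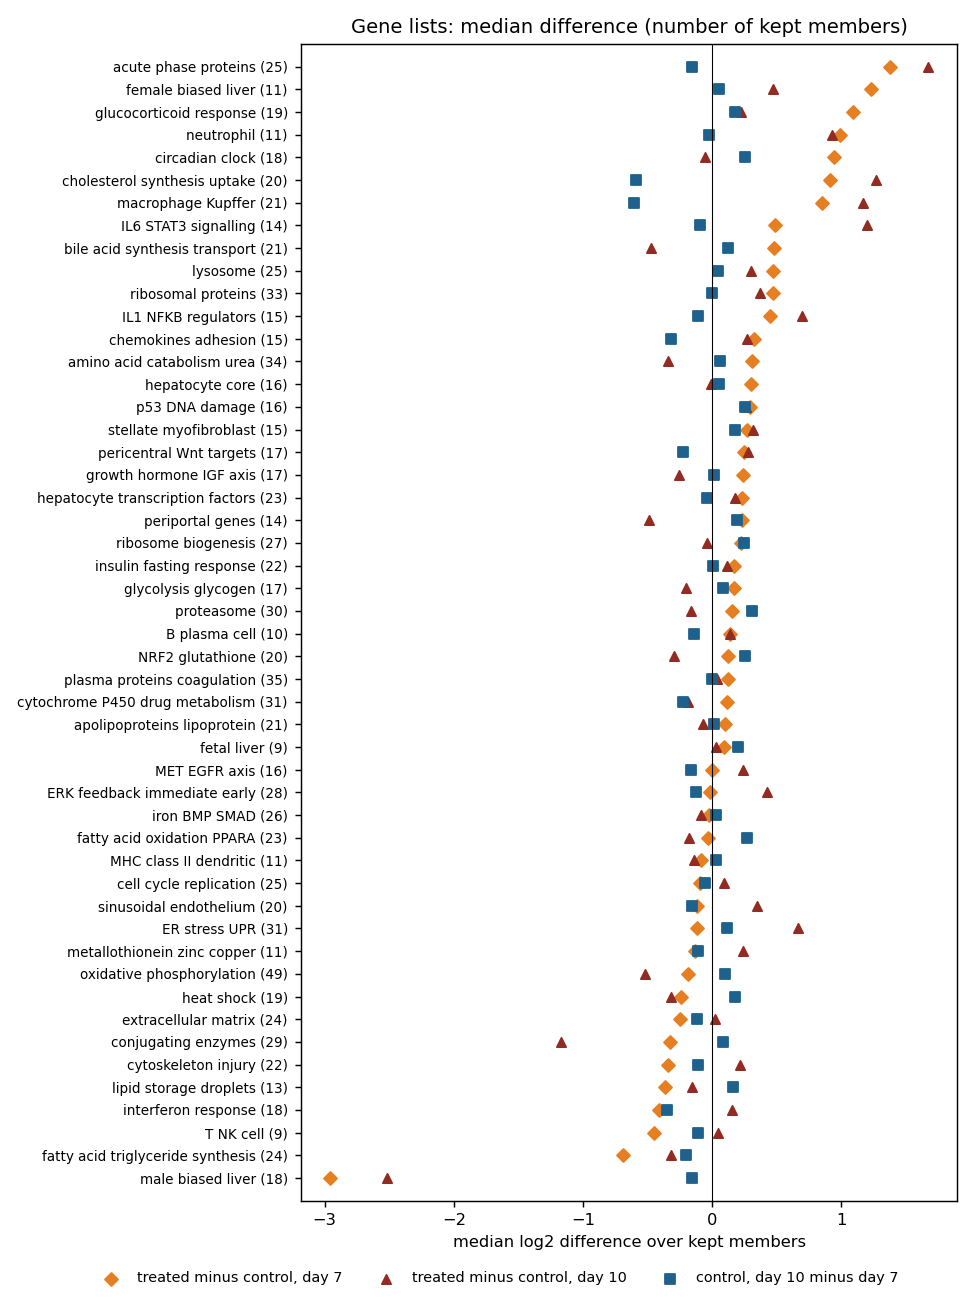
Median log2 difference over the kept members of each gene list with 9 or more kept members (number in brackets) for treated minus control at day 7, the same at day 10 and control day 10 minus day 7. Clock, glucocorticoid, female-biased, bile acid and amino acid lists lie further to the right at day 7 than at day 10, while the male-biased list lies near -2.96 and -2.52.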

How the data were processed

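Total RNA of pooled livers was measured on 4 Affymetrix mouse arrays, 1 per group and day. The authors deposited 1 linear intensity (signal) per probe set and array, computed with MAS5 per the submitters' processing notes, which name no version. After trimming 2% at each end, the arrays had nearly equal means. Detection calls were not used here. Precision is limited by the small number of arrays.

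The arrays carry 45101 probe sets, including 64 array controls. Among the rest, 34945 had 1 gene symbol in the platform annotation, 932 had several and 9160 had none; only the first kind entered gene counts, and 99.4% of those matched the RefSeq gene table by Entrez ID. Signals under 64.8, the 25th percentile, were raised to it before taking log2, and the brightest probe set stood for its gene. The filter kept genes whose log2 mean over the arrays exceeded 7.67, the median over probe sets (signal 204). Genes that passed only through their treated signals had to be higher there than in the controls. A gene at the floor has only a bound, given as "at least".

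No test was made, because each side is 1 array. Differences were described by a 2-fold size rule. Genes were named by a rule: the 12 largest peaks and troughs, the 6 highest and 6 lowest outside both controls, the leading members of each of 55 gene lists (up to 4 by size and 2 by peak or trough), the 5 largest opposite differences, and Met, Egfr and Erbb3; predicted genes were passed over. The members and lists were chosen with earlier results of these data known. Promoters came from RefSeq (GRCm38.p6). Alternatives were other normalizations, floors, filters, size rules, probe sets and control arrays. Python 3.11.15, pandas 2.3.3, numpy 2.4.6 and matplotlib 3.10.9 were used.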

Additional observations from a re-analysis of the deposited data

Results flagged for a closer look

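These results lay on opposite sides at the 2 days, with 1 array per side, and the difference between the days was not tested. Mroh2a, a gene of HEAT repeats, differed by -3.55 on the log2 scale at day 7 and by 3.63 at day 10; its control signals of 2105 at day 7 and 116 at day 10 lay far apart. Epha2, an ephrin receptor, differed by 3.82 and -2.87, with control signals of 78.6 and 547. Derl3, of the degradation of misfolded proteins, differed by -2.43 and 2.85, with control signals of 927 and 182. Spaca4 differed by 2.84 and -2.09, with control signals of 67.6 and 542. For these 4 genes the control arrays differed by more than 4-fold, so each value rests on which control array is used. Cyp7a1, the rate-setting enzyme of bile acid synthesis, differed by 2.24 at day 7 and -2.63 at day 10, and its treated signals of 7478 and 546 lay outside both controls, 1587 and 3373.

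The median of the bile acid list was 0.48 at day 7 and -0.47 at day 10. That of the 6 kept bile duct and progenitor markers was -0.49 and 0.50. In all, 55 genes with an assigned name were 2-fold or more apart in opposite directions, 21 of them higher and 34 lower at day 7.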

How the results depend on the processing

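With 1 array per side, nothing here measures the spread between animals, and the yardstick comes from a single pair of control pools. No paired analysis was possible because each group has 1 array per day and the labels carry no replicate numbers; for the same reason no replicate could be left out. Without the filter on dim genes, 1101 genes were higher and 1236 lower at day 7, with 196 peaks and 256 troughs. With the filter at the 75th percentile, the counts were 295 and 243, with 40 peaks and 40 troughs. The yardstick then gave 2.3% of genes against 7.55% at day 7, and without the filter 8.78% against 12.8%. The 1.5-fold rule gave 1449 higher and 1841 lower genes, 253 peaks and 481 troughs, and the 3-fold rule 213 and 193, 15 peaks and 56 troughs. Averaging the probe sets of each gene left 92 troughs. Quantile normalization, equal medians, the other floors and the other control arrays kept each count within 1.5 times.

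Among the list medians recomputed this way, 483 moved by less than 0.52, the SD of the yardstick, 10 by more, and 2 larger than that SD turned. Of the 483, 34 crossed 0, from medians of 0.27 or less in size. With the day 10 control array, the medians that moved were those of the glucocorticoid (0.52), female-biased (1.79) and cholesterol (1.57) lists. The other 7 moved with the filter or with probe sets averaged: chemokines (0.33 as reported, -0.21 without the filter, 1.07 with the stricter one), female-biased genes (5.2 with the stricter filter, 2.63 averaged), T and NK cells (-0.45 as reported, 0.44 with the stricter filter), and, averaged, male-biased genes (-2.15) and bile duct markers (-1.11). The 2 that turned were those of the adipocyte list, whose median of -0.57 over 3 genes became 0.153 under the stricter filter and 0.0228 with probe sets averaged. Of the values of genes named here, 1037 moved by less than that SD, 131 by more, and 2 of the 2-fold genes turned with the day 10 control array, Mroh2a (0.63) and Spaca4 (-0.16). Other probe sets of the same gene turned the sign for Fbxo41 (-0.22), Actr5 (0.20), Phgdh (0.75), Unc5b (1.31), Tsc22d3 (-0.33), Pck1 (-0.45), Acly (0.21), Pim1 (-0.24), Pim3 (-0.50), Il1r1 (-0.0133) and Socs2 (-0.0439). The cause was not tested. Among all other probe sets of the genes named here, dim ones included, 26 moved by less than that SD, 65 by more and 11 turned. Of 65 other probe sets above the filter of 2-fold genes named here, 62 had the same direction and 39 were also 2-fold.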

Other observations

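Further gene groups at day 7 are given by their counts and medians. Of 22 kept genes that answer to insulin and fasting, 4 were 2-fold higher and 2 lower, with a median of 0.17. Of 17 genes of glycolysis and glycogen 2 were higher and 1 lower. Of 17 genes of the growth hormone axis 4 were higher and 3 lower. Of 23 hepatocyte transcription factors 5 were higher and 2 lower. Genes of pericentral hepatocytes, which depend on Wnt signalling, had 3 higher and 2 lower of 17, and the median was 0.24. Genes of periportal hepatocytes had 3 higher and 1 lower of 14, with a median of 0.23. The NRF2 and glutathione list had 2 higher and 2 lower of 20. Gpx3, a secreted glutathione peroxidase, read 1580.1 and 997 in treated livers of days 7 and 10, against 350.4 and 446 in the controls, and Gclc, the first enzyme of glutathione synthesis, 1828 and 2166 in treated livers of days 7 and 10, against 7318 and 10811 in the controls.

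Il1r1, the receptor of interleukin-1, read 2330.1 and 2914 in treated livers of days 7 and 10, against 134 and 118 in the controls, and Nfkbiz, a nuclear regulator of NF-kB that interleukin-1 induces, 3381 and 1691 in treated livers of days 7 and 10, against 345 and 338 in the controls. Of 15 kept genes of that list 4 were 2-fold higher at day 7 and 0 lower. Il1r1 passed the filter only through the treated arrays, so it had to be higher there. Of 15 chemokine and adhesion genes 5 were higher and 3 lower. Of 16 p53 and DNA damage genes 1 was higher and 1 lower, and of 24 matrix genes 0 and 1. Of 27 ribosome biogenesis genes 1 was higher and 0 lower, and of 4 kept sex-linked genes 0 were higher and 0 lower. Pim3, a kinase induced by cytokines and named after its values were seen, read 178 and 2089 on the control arrays of days 7 and 10, 2529 on the treated array of day 7 and 3598 on that of day 10, so its day 7 control array lay 11.8-fold under the day 10 control array.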
